A study of Mus musculus with 6 samples.

Results

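Polycomb, trithorax and chromatin remodelling genes set which developmental genes a neural stem cell keeps silent and which it can still use. They are described here in neurospheres, floating colonies grown from stem and progenitor cells of the adult mouse subventricular zone. The genes come from a list of 32 names, chosen with earlier results of these data known. Of these, 31 had a probe set of their own among the 22180 genes tested. Cbx6 shares its probe set with Npcd and Nptxr and was not analysed here. The 31 genes comprise 7 of Polycomb repressive complex 2 (PRC2), 13 of Polycomb repressive complex 1 (PRC1), 3 lysine demethylases, the trithorax methyltransferase gene Kmt2a, 3 histone deacetylases, 3 remodeller subunits and the architectural protein gene Hmga2.

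RNA came from 2-month-old CD1 offspring, CD1 being an outbred stock, of mothers given PBS or MG at 0.5 mg/kg by intraperitoneal injection, with 2 injections a day from gestational day 12 to birth. MG is read as methylglyoxal, a reactive by-product of glycolysis, from the title of the series. Both groups held 3 animals, each measured on an Affymetrix Mouse Gene 2.0 ST array after 7 days in culture with the growth factors EGF and FGF2. Sex and litter are not in the labels, so the p-values measure the spread between 3 cultures and may be too small if litters were shared. Titles call the cultures primary and descriptions call them secondary.

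PRC2 methylates a tail lysine of histone H3, PRC1 ubiquitinates histone H2A and compacts chromatin, and trithorax proteins such as the product of Kmt2a oppose this silencing with an activating methyl mark. In the subventricular zone Bmi1, a PRC1 subunit, is known to sustain stem cell self-renewal by silencing Cdkn2a, and Kmt2a is needed for neurogenesis through Dlx2. Hmga2, which bends DNA at AT-rich sites, is known as a fetal and young-adult stem cell gene that holds Cdkn2a low. Smarca4 encodes the motor of the BAF remodelling complex, and Chd7 a remodeller of neurogenesis.

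All 31 genes lay above the reference level of 5.02 on every array, a level defined as the 95th percentile of the mean values of 1394 olfactory and vomeronasal receptor genes, which such cells are not expected to express. Over all genes tested, 58.0% did so. All values are log2 and depend on the probe set, so levels are not ranked between genes. The 10 stem cell and radial glia markers were all above the reference on every array. So were the 8 markers tested of astrocytes and the 8 tested of the oligodendrocyte lineage. The same was true of 8 of 10 neuroblast and neuron markers and 4 of 7 ependymal markers. Fewer were above it among microglial (3 of 9), endothelial (2 of 8), pericyte and fibroblast (3 of 9) and choroid plexus (1 of 6) markers. The arrays numbered 3 of both groups stood apart from the other 4. The mean of 42 S phase genes, each centred on its mean over the 6 arrays, was 0.43 on PBS array 3 and 0.45 on MG array 3. Elsewhere it ran from -0.39 (PBS array 1) to -0.12. By contrast, the 8 astrocyte markers averaged -0.45 on PBS array 3 and -0.43 on MG array 3, with -0.0047 to 0.42 on the other arrays. All 8 astrocyte markers also had higher means after MG (median log2 difference 0.15), as had 33 of 42 S phase genes (median 0.05). None had an adjusted call. Means were higher in 53.8% of all genes and 58.2% of those above the reference level. With quantile normalisation 32 of the 42 S phase genes were higher, beside 56.1% of the genes above the reference level. With median centring 40 were, beside 71.9%. Because the arrays fall into these clusters, no correlation across them is given, and values are set side by side.

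Promoter windows from a RefSeq table, which was not searched on every chromosome, were available for 26 of the genes. Those of Ezh2 and Suz12, both core PRC2 subunits, held a match to an E2F-type motif. Such a motif is the kind of site bound by the factors that drive S phase transcription. The motif was searched on both strands as TTTCCCGC, TTTCGCGC, TTTGCCGC and TTTGGCGC in windows from 250 bases before to 50 bases after the start of the transcript. Matches were found in 7.69% of the 26 genes, in 3.26% of 16990 tested genes with a window, in 4.74% of the 10140 of these above the reference level, in 41.7% of 36 S phase genes and in 2.94% of 34 mitosis genes. The windows are shown because they are the 2 that carry the motif, whose matches are in capitals. Sequence and coordinates are those of GRCm38.p6. The Ezh2 window is chr6:47594981-47595280 on the minus strand, and its match starts at base 4 of the transcript. The Suz12 window is chr11:79992856-79993155 on the plus strand, and its match starts at position -219 relative to the transcript start.
Ezh2: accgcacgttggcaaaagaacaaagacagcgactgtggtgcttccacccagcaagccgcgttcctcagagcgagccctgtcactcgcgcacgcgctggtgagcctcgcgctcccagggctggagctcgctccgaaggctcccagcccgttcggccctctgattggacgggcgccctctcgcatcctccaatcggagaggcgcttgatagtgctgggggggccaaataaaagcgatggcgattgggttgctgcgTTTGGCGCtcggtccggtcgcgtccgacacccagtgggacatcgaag
Suz12: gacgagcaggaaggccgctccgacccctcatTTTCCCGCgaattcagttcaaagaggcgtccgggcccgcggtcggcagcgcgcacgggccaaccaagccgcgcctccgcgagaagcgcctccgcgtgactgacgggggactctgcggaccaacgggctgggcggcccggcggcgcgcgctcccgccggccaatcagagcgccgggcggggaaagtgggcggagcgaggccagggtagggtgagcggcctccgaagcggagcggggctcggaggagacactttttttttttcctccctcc

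A match is a run of letters and not a measured binding site. CCAAT, searched in the same way, was in 11 of the 26 genes (42.3%) and in 41.6% of tested genes, and it overlapped neither E2F match. Most of the windows were rich in CpG. Of 31 windows for the 26 genes, 26 had a ratio of observed to expected CpG above 0.6, which is 83.9% against 47.9% of windows of the genes tested and 68.0% of those of genes above the reference level on every array. The windows of Hmga2 (0.54), Phc1 (0.53) and Pcgf2 (0.36) lay below it, as did 1 of the 3 windows of Pcgf5 (0.29) and 1 of the 3 of Phc2 (0.11).

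**Figure D1:**
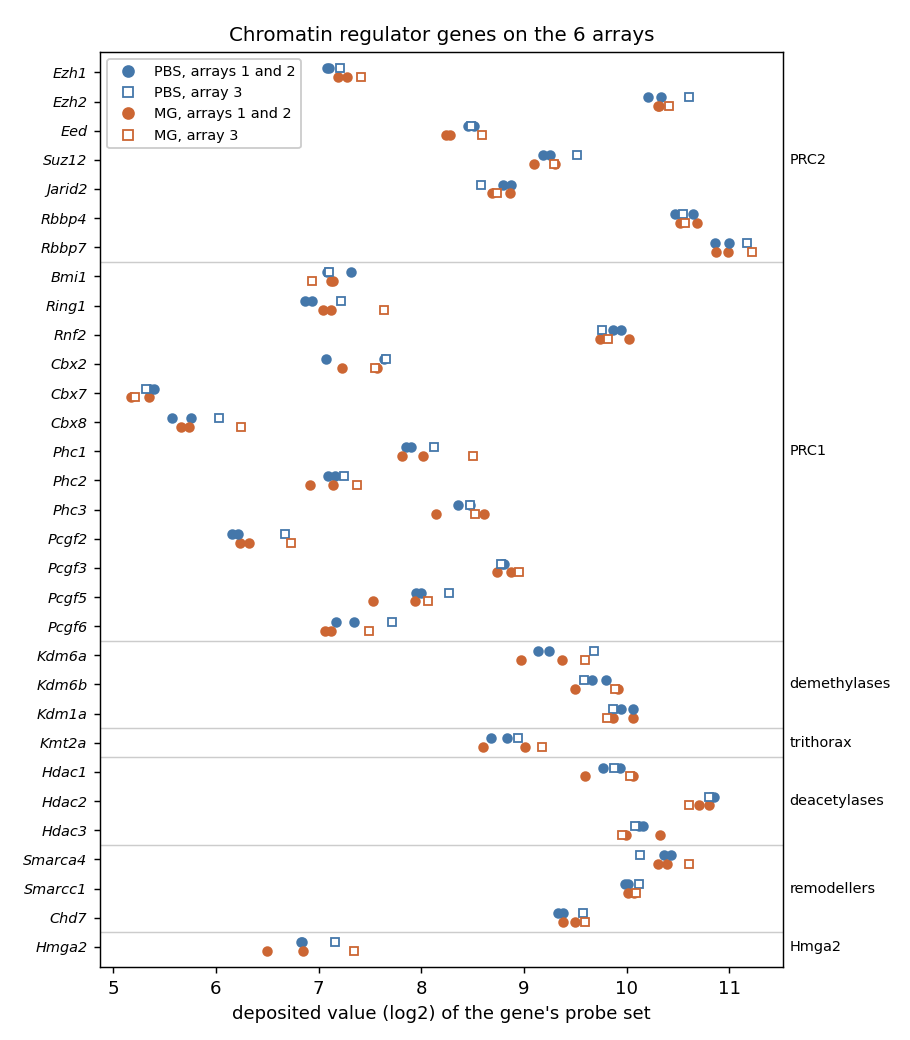
Deposited log2 value (horizontal axis) of each of the 31 genes on each array, PBS in blue and MG in orange, with arrays 1 and 2 as filled circles and array 3 as open squares. In every gene the PBS and MG values overlap, and for Hmga2, Pcgf2, Pcgf6 and Cbx8 the open squares lie at the right in both groups.

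The first comparison asks whether prenatal MG left a difference in these genes in adult cultures. At a Benjamini-Hochberg adjusted p under 0.05 in limma, none of the 31 was called, nor was any of the 22180 genes (0%, smallest adjusted p 0.241). None of the 31 had an unadjusted p under 0.05 either, against 3.21% of all genes and 1.50% of those above the reference level on every array. In none did the groups separate without overlap, against 7.34% and 5.56%. Means were higher after MG in 16 (51.6% of the 31, beside 53.8% of all genes and 58.2% of those above the reference level) and lower in 15. With quantile normalisation 15 were higher and 16 lower, and with median centring 20 were higher and 11 lower, beside 56.1% and 71.9% of the genes above the reference level higher. The median log2 difference, MG minus PBS, was 0.0018 over the 31 genes and 0.013 over all genes tested (0.023 over those above the reference level). Differences ran from -0.22 (Pcgf5) to 0.25 (Ring1), and the smallest unadjusted p of a member in limma was 0.206. The 95% confidence interval lay inside a 1.5-fold change either way (a log2 difference of 0.58) in 27 of the 31. The others were Ring1, Phc1, Pcgf5 and Pcgf6, whose intervals reached 0.68, 0.59, -0.62 and -0.60.

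**Figure D2:**
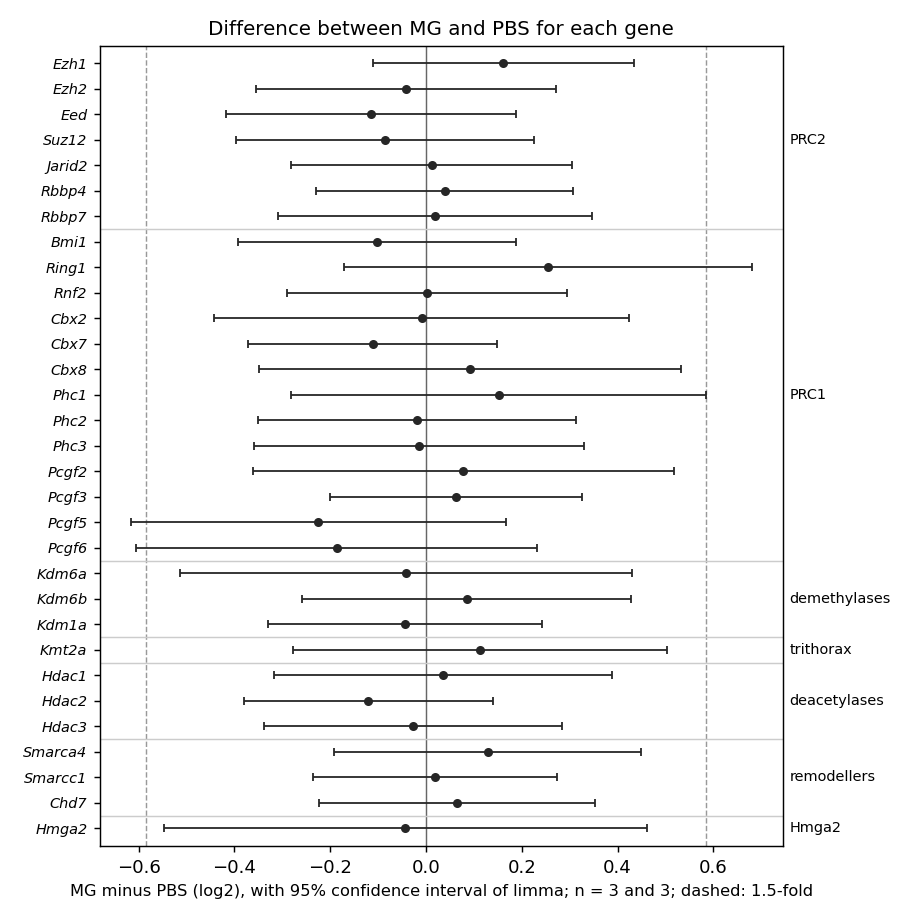
Log2 difference between the means of MG and PBS (points, 3 arrays each) with the 95% confidence interval of limma (bars) for each of the 31 genes, and dashed lines at 1.5-fold. All intervals cross 0, and those of Ring1, Phc1, Pcgf5 and Pcgf6 cross a dashed line.

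Among the PRC2 genes, the catalytic paralogues Ezh1 and Ezh2 lay on different sides of 0. Ezh1 stood at 7.08, 7.10 and 7.21 on PBS arrays 1 to 3 and at 7.28, 7.19 and 7.41 on MG arrays 1 to 3. Apart from MG array 2, which lay just under PBS array 3, the MG values were above all PBS values. The means were 7.13 ± 0.07 and 7.29 ± 0.11 (SD, n = 3), and the log2 difference was 0.16 with its standard error at 0.12. Ezh2, the main methyltransferase of dividing progenitors, stood at 10.21, 10.33 and 10.61 on the PBS arrays and 10.30, 10.31 and 10.41 on the MG arrays. PBS array 3 was the highest of the 6 and PBS array 1 the lowest, so the MG range lay within that of PBS. The log2 difference of Ezh2 was -0.04, with an interval from -0.36 to 0.27.

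Eed, the subunit that reads the methyl mark, was at 8.51, 8.46 and 8.49 on the PBS arrays and 8.28, 8.25 and 8.59 on the MG arrays. MG arrays 1 and 2 were below all PBS values and MG array 3 above them, which gave a log2 difference of -0.11 ± 0.13 (standard error). Suz12, the scaffold of the complex, ran from 9.18 to 9.51 in PBS and from 9.10 to 9.30 in MG, a difference of -0.09. Jarid2, which helps to recruit PRC2, was at 8.87, 8.80 and 8.58 on the PBS arrays and 8.69, 8.86 and 8.74 on the MG arrays, a difference of 0.01. The histone-binding subunits Rbbp4 and Rbbp7, which PRC2 shares with other complexes, differed by 0.04 and 0.02. Of the 7 PRC2 genes 4 had higher and 3 lower means after MG.

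PRC1 showed the widest spread of differences. Its ubiquitin ligases are encoded by Ring1 and Rnf2. Ring1 stood at 6.94, 6.87 and 7.22 on the PBS arrays and 7.12, 7.04 and 7.63 on the MG arrays. Array 3 was the highest in each group, and PBS array 3 lay between the MG values. The means were 7.01 ± 0.19 and 7.27 ± 0.32 (SD, n = 3). The log2 difference was 0.25 with its standard error at 0.18. Rnf2 was at 9.86, 9.95 and 9.76 on the PBS arrays and 10.02, 9.74 and 9.81 on the MG arrays, a difference of 0.0018 with an interval from -0.29 to 0.29.

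The Pcgf subunits decide which form of PRC1 is built. Bmi1, a Pcgf member of canonical PRC1, was at 7.09, 7.31 and 7.10 on the PBS arrays and 7.12, 7.14 and 6.93 on the MG arrays. The log2 difference of Bmi1 was -0.10 with an interval from -0.39 to 0.19. Pcgf2, its close paralogue, was at 6.16, 6.22 and 6.68 on the PBS arrays and 6.23, 6.32 and 6.74 on the MG arrays. In both groups array 3 stood well above the others, and the difference between groups was 0.08. Pcgf5, of a variant PRC1, had the lowest difference of all 31 genes. It was at 7.94, 7.995 and 8.27 on the PBS arrays and 7.94, 7.53 and 8.06 on the MG arrays, so MG array 2 alone lay well under the PBS range. For Pcgf5 the log2 difference was -0.22 and its standard error 0.17. Pcgf6, also of a variant PRC1, was at 7.17, 7.35 and 7.72 on the PBS arrays and 7.06, 7.12 and 7.49 on the MG arrays. The MG range reached lower than the PBS range and overlapped it (difference -0.19, standard error 0.18). Pcgf3 was the steadiest in PBS, at 8.79 ± 0.01 (SD, n = 3), and differed by 0.06.

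The chromobox proteins read the PRC2 mark, and the Phc proteins polymerise PRC1. Cbx7 lay close to the reference level, at 5.36, 5.39 and 5.32 on the PBS arrays and 5.35, 5.18 and 5.21 on the MG arrays. MG arrays 2 and 3 were below all PBS values and MG array 1 was not (difference -0.11, interval -0.37 to 0.15). Cbx8 was at 5.57, 5.76 and 6.04 on the PBS arrays and 5.66, 5.74 and 6.24 on the MG arrays, with array 3 highest in each group. Cbx2 had the largest SD in PBS of all 31 genes, at 7.46 ± 0.33 against 7.45 ± 0.19 in MG (SD, n = 3), because PBS array 2, at 7.08, lay far under the 7.64 and 7.65 of the others. Phc1, at 7.85, 7.90 and 8.12 on the PBS arrays and 7.81, 8.02 and 8.50 on the MG arrays, differed by 0.15, with MG array 3 above all other values. Phc2 and Phc3 differed by -0.02 and -0.01. Of the 13 PRC1 genes 6 had higher and 7 lower means after MG.

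The demethylases Kdm6a and Kdm6b remove the PRC2 mark, while Kdm1a acts on the activating one. Kdm6a was at 9.24, 9.13 and 9.69 on the PBS arrays and 8.97, 9.37 and 9.60 on the MG arrays. Array 3 was highest in each group and the lowest value was MG array 1 (difference -0.04, interval -0.51 to 0.43). Kdm6b was at 9.80, 9.66 and 9.58 on the PBS arrays and 9.49, 9.92 and 9.88 on the MG arrays, a difference of 0.08. Kdm1a was at 9.95, 10.06 and 9.86 on the PBS arrays and 10.06, 9.87 and 9.81 on the MG arrays, with array 3 the lowest in each group and a difference of -0.04. Kmt2a was at 8.83, 8.68 and 8.94 on the PBS arrays and 8.60, 9.01 and 9.18 on the MG arrays. MG array 1 was below all PBS values and MG arrays 2 and 3 above them (difference 0.11, interval -0.28 to 0.50).

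The deacetylases Hdac1, Hdac2 and Hdac3 are the catalytic subunits of corepressor complexes. Hdac2 was tight in PBS, at 10.82, 10.85 and 10.80, and stood at 10.80, 10.70 and 10.61 in MG. MG arrays 2 and 3 were below all PBS values, and the difference was -0.12 with an interval from -0.38 to 0.14. Hdac3 was at 10.12, 10.16 and 10.08 on the PBS arrays and 10.33, 10.00 and 9.95 on the MG arrays, and Hdac1 ran from 9.77 to 9.94 in PBS and from 9.60 to 10.06 in MG. For Hdac1 and Hdac3 the MG range enclosed the PBS range. Their differences were 0.04 and -0.03.

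The remodeller genes all had higher means after MG, by 0.13 for Smarca4 (-0.047 without both arrays numbered 3), 0.02 for its core partner Smarcc1 and 0.06 for Chd7, all with intervals that include 0. Smarca4 was at 10.36, 10.43 and 10.13 on the PBS arrays and 10.40, 10.30 and 10.61 on the MG arrays. It was lowest on array 3 in PBS and highest on array 3 in MG. Hmga2 had the largest standard error of the 31 genes, 0.22. It stood at 6.84, 6.83 and 7.16 on the PBS arrays and 6.50, 6.85 and 7.35 on the MG arrays, so MG alone held both the lowest and the highest value, and the difference was -0.04 with an interval from -0.55 to 0.46.

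A second comparison concerns proliferation. The arrays numbered 3 had the highest S phase and mitosis means, and 15 of the 31 genes (48.4%) were highest on array 3 within both groups, against 19.6% of all genes and 27.8% of the genes above the reference level on every array. The same held for 41 of 42 S phase genes and 40 of 41 mitosis genes. The arrays numbered 3 were looked at because earlier results of these data showed them apart in such genes. The S phase and mitosis counts follow from that choice and are not a separate result. Only Kdm1a, Hdac2 and Hdac3 were lowest on array 3 in both groups (9.68%, against 21.2% of all genes and 23.3% of those above the reference level), and the other 13 were mixed. Averaged over both groups, the array 3 difference (array 3 minus the mean of arrays 1 and 2) had a median of 0.17 over the 31 genes. The median was 0.63 over the S phase genes, 0.49 over the mitosis genes, -0.03 over all genes and 0.0045 over those above the reference level. The array 3 difference was larger in size than the difference between MG and PBS in 25 of the 31. The same count was not made over all genes, so it is not read as a trait of these genes. With each array scaled by quantile normalisation or centred on its median, 12 and 13 genes were highest on both arrays numbered 3 (15.2% and 13.4% of all genes, 21.1% and 19.3% of those above the reference level). Under either scaling 5 were lowest (28.7% and 27.4% of all genes, 33.5% and 27.6% of those above the reference level). The astrocyte markers were lowest on the same arrays in 7 of 8 cases, and their part in these values was not tested. In whole cultures, fewer cells of a type and less RNA per cell cannot be told apart.

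Hmga2 was the member furthest up with the S phase genes. Its array 3 difference was 0.33 in PBS and 0.68 in MG, with a mean of 0.50, above that of 93.6% of the 12864 genes over the reference level. Pcgf2 (0.49 and 0.46), the demethylase gene Kdm6a (0.50 and 0.43), Cbx8 (0.37 and 0.54), Ring1 (0.32 and 0.55), Pcgf6 (0.46 and 0.39) and Phc1 (0.25 and 0.59) followed, each above the difference of at least 90.3% of those genes. Rbbp7 (0.25 and 0.28), Pcgf5 (0.30 and 0.33) and Kmt2a (0.19 and 0.37) came next. Phc2, Chd7, Ezh1 and Smarcc1 were also highest on both arrays numbered 3, by smaller distances. Ezh1 and Smarcc1 were not so under either scaling, nor was Phc2 with quantile normalisation.

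The promoters with an E2F-type match belong to genes with a moderate array 3 difference. Ezh2 was highest on array 3 in both groups, by 0.33 in PBS and 0.10 in MG. Suz12 differed by 0.29 in PBS and 0.09 in MG, where array 1 was the highest. Both lay below the median of the S phase genes. Hmga2, Pcgf2 and Ring1, whose array 3 differences were larger, had no match in these windows. At the other end stood Bmi1 (-0.10 and -0.20), Kdm1a (-0.14 and -0.15), Jarid2 (-0.25 and -0.03), Hdac3 (-0.06 and -0.21), Rnf2 (-0.14 and -0.07) and Hdac2 (-0.03 and -0.14). Between these lay Cbx2 (0.30 and 0.15), Eed (0.0036 and 0.33), Hdac1 (0.02 and 0.21), Phc3 (0.06 and 0.14), Pcgf3 (-0.02 and 0.14), Kdm6b (-0.14 and 0.18), Smarca4 (-0.27 and 0.26), Rbbp4 (-0.01 and -0.03) and Cbx7 (-0.06 and -0.05). Smarca4 and Kdm6b had opposite signs in the groups, a difference that was not tested. Jarid2 and Bmi1 were lowest on both arrays numbered 3 once the arrays were rescaled.

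**Figure D3:**
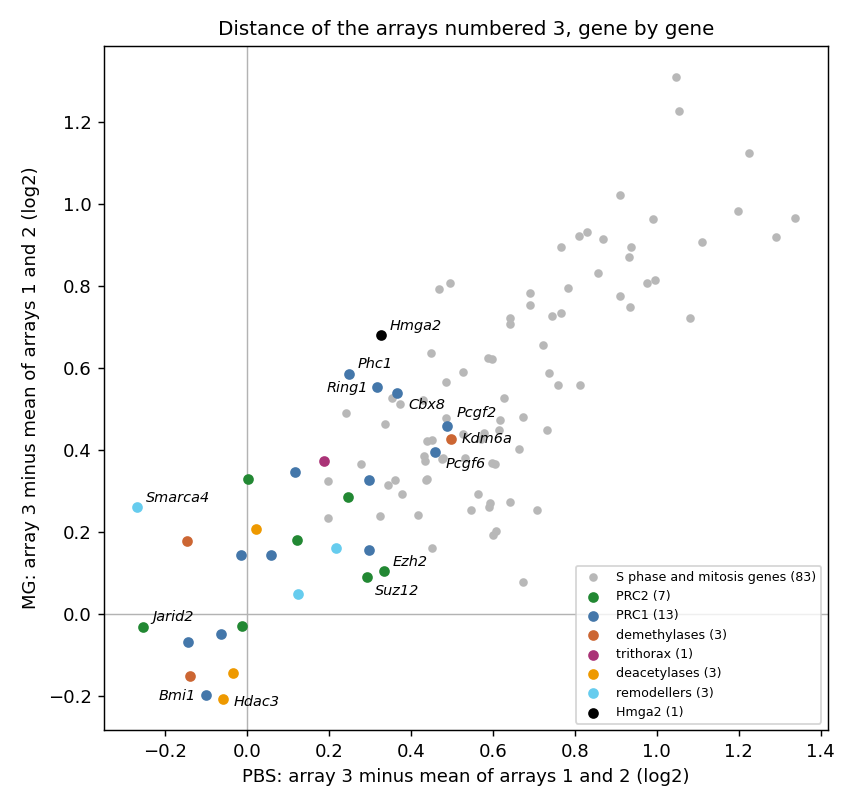
Log2 distance of array 3 from the mean of arrays 1 and 2 in PBS (horizontal axis) and in MG (vertical axis) for the 31 genes, coloured by role, and for 83 S phase and mitosis genes in grey. Grey points lie at the upper right, Hmga2, Pcgf2 and Kdm6a reach among them, and the deacetylase genes Hdac2 and Hdac3 lie at the lower left.

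The Ink4 genes, which encode cell cycle inhibitors and include targets of Polycomb silencing, split into opposite patterns. Cdkn2a, which encodes Ink4a and Arf, was at 9.20, 9.02 and 8.45 on the PBS arrays and 9.47, 9.10 and 8.50 on the MG arrays. Cdkn2b, its neighbour, was at 8.75, 8.92 and 7.83 on the PBS arrays and 8.67, 8.70 and 7.69 on the MG arrays. In both genes the arrays numbered 3, where Hmga2 and the S phase genes were highest, had the lowest values. The array 3 differences of -0.72 and -0.999 exceeded only 1.78% and 0.552% of those of the genes over the reference level. Bmi1 had negative array 3 differences, -0.10 in PBS and -0.20 in MG, and 7 of 8 astrocyte markers were also lowest on these arrays. The relation of any of them to Cdkn2a and Cdkn2b was not tested. Cdkn2c was at 8.20, 8.47 and 8.72 on the PBS arrays and 8.67, 8.35 and 8.74 on the MG arrays, and Cdkn2d ran from 7.38 to 7.87 in PBS and from 7.69 to 7.92 in MG. Both were highest on array 3 in each group. Between MG and PBS the 4 genes differed by 0.14 (Cdkn2a), -0.15 (Cdkn2b), 0.13 (Cdkn2c) and 0.14 (Cdkn2d), all with intervals that include 0.

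Of the other genes around Hmga2, Igf2bp3, an RNA-binding protein of fetal tissue, was at 6.77, 6.68 and 7.38 on the PBS arrays and 7.20, 7.27 and 7.70 on the MG arrays. Its log2 difference between groups was 0.45 with an interval from -0.05 to 0.95, and its groups overlapped through PBS array 3. Lin28b, a block on let-7 processing, was below the reference level on all 6 arrays, and Lin28a lay between 5.36 and 5.79. Cdkn1a differed by -0.11. Hmga1, Igf2bp1 and Igf2bp2 were not analysed here. Dlx2, the gene that Kmt2a is known to keep active, ran from 7.35 to 7.76 in PBS and from 7.50 to 7.86 in MG (difference 0.14), highest on array 3 in both groups. Sox4 and Sox11, known to depend on Chd7, differed by 0.02 and -0.09. Gsx2 had an array 3 difference of 0.68 in PBS and 0.05 in MG, and Dlx6 was below the reference level on every array.

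**Figure D4:**
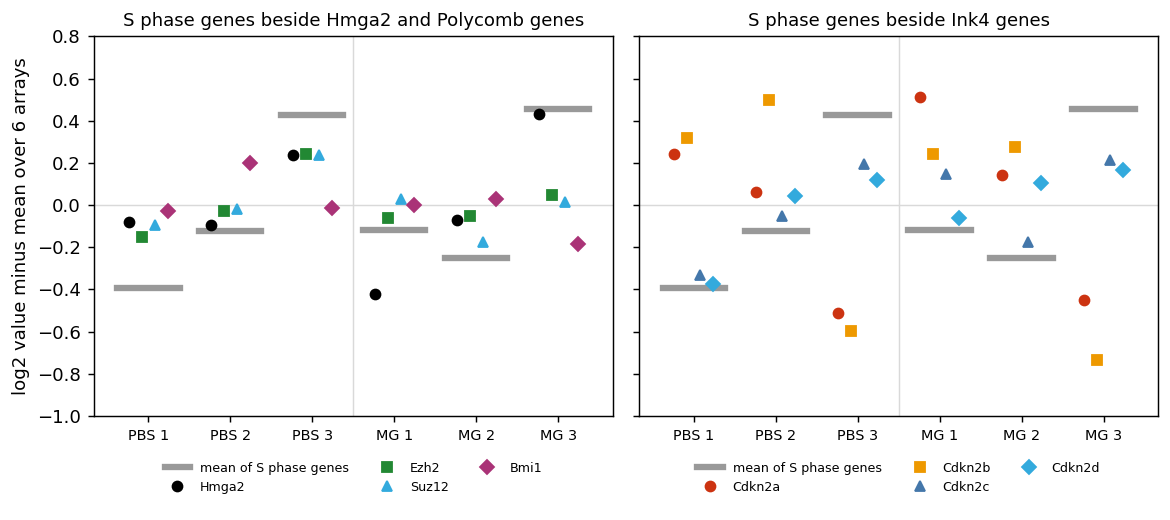
Log2 value minus the gene's mean over the 6 arrays (vertical axis) on each array, for Hmga2, Ezh2, Suz12 and Bmi1 at the left and the 4 Ink4 genes at the right, with the mean of 42 S phase genes as a horizontal grey line. On array 3 of each group the grey line and Hmga2 are at their highest in that group, while Cdkn2a and Cdkn2b are at their lowest.

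The Hox genes, classic targets of Polycomb silencing that the forebrain does not normally use, were mostly dim. Of 36 tested, 21 (58.3%) lay below the reference level on every array, against 32.0% of all genes, and 4 lay above it on every array. These were Hoxa4, Hoxa6, Hoxb5 and Hoxd10, with log2 differences from -0.19 to 0.00036 between the groups. Means were lower after MG in 25 of the 36 (46.2% of all genes were lower), with a median of -0.09. With quantile normalisation 20 were lower and 16 higher (44.4% higher, against 54.9% of all genes). With median centring 19 were lower and 17 higher (47.2%, against 65.5%). Most of the 36 were dim, and no share over dim genes alone was computed. Hoxc11 had an unadjusted p of 0.0173 in limma and no adjusted call, and it was below the reference level on every array, so no fold is given. Hoxa9 and Hoxa7, which differed most on the arrays numbered 3, were not above the reference level on every array either, and no value is given for them.

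Other chromatin regulators gave no adjusted call among 141 genes tested of 150 listed. An unadjusted p under 0.05 was found in 3 of them, 2.13% against 3.21% of all genes and 1.50% of those above the reference level, where 139 of the 141 lay. They were the deacetylase genes Hdac10 (log2 difference 0.32) and Sirt2 (0.42) and the H2A deubiquitinase cofactor gene Asxl3 (0.32), all with higher means after MG. Sirt2, which also marks oligodendrocytes, was at 11.42, 11.59 and 11.09 on the PBS arrays and 11.95, 11.87 and 11.55 on the MG arrays, with MG array 3 inside the PBS range. The oligodendrocyte lineage markers ran from 8.47 to 8.67 per array in PBS and from 8.45 to 8.84 in MG as a mean of 8 genes, and their part in the Sirt2 values was not tested. Hdac10 was between 6.79 and 6.95 in PBS and between 7.07 and 7.30 in MG, without overlap. The groups did not overlap in 4 of the 141, of which 3 were other BAF genes. Over all genes the share without overlap was 7.34%, and over those above the reference level 5.56%.

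Means were higher after MG in 94 of the 141, which is 66.7% against 53.8% of all genes and 58.2% of those above the reference level. With quantile normalisation 84 were higher (59.6% against 56.1% of the genes above the reference level), and with median centring 108 (76.6% against 71.9%). By complex, means were higher in 2 of 7 PRC2 accessory genes, 10 of 20 other PRC1 genes, 4 of 7 deubiquitinase genes, 15 of 20 other trithorax and COMPASS genes, 18 of 24 other BAF genes and 14 of 18 genes of NuRD, CoREST and Sin3. They were higher in 9 of 18 other CHD and ISWI genes, 12 of 15 other deacetylase genes and 10 of 12 other demethylase genes. List medians lay between -0.04 and 0.09, beside 0.013 over all genes and 0.023 over those above the reference level, and no member of these lists other than those 3 had an unadjusted p under 0.05.

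Of the 141, 59 (41.8%) were highest on both arrays numbered 3, against 19.6% of all genes and 27.8% of those above the reference level. The lowest values fell there in 29 (20.6%, against 21.2% and 23.3%). Neither count was made for the 141 with quantile normalisation or median centring. The PRC2 accessory genes Mtf2 (array 3 difference 0.84 in PBS and 0.87 in MG) and Phf19 (0.68 and 0.66), which bring PRC2 to CpG-rich DNA, and Hells (0.83 and 0.70), a remodeller linked to DNA methylation, had larger differences than any of the 31 genes. Setd1a (0.64 and 1.06), Pcgf1 (0.57 and 0.89), Auts2 (0.62 and 0.68), Asxl1 (0.57 and 0.74), Brd9 (0.66 and 0.44) and Rcor3 (0.66 and 0.52) were also high. Srcap (0.38 and 0.56), Sirt1 (0.48 and 0.45), Phf2 (0.44 and 0.38) and Usp21 (0.29 and 0.20) lay within the range of the 31 genes. For scale, Tyms (1.05 and 1.31) and Pole (1.23 and 1.12) led the S phase genes, and Pttg1 (1.29 and 0.92) and Birc5 (0.91 and 1.02) the mitosis genes. The demethylase genes Kdm5b (-0.62 and -0.59) and Kdm7a (-0.65 and -0.34), the deacetylase gene Hdac8 (-0.80 and -0.47), the remodeller gene Chd5 (-0.30 and -0.47) and the BAF gene Dpf3 (-0.68 and -0.44) went the other way.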

How the data were processed

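The members, lists and tests were chosen with earlier results of these data known. The deposited values are log2 values, 1 per probe set and array, a scale inferred from their range (0.73 to 13.81); per the submitters' processing notes the software was Partek 6.6. Genome build, background correction and scaling were not given in the sources used here. Array medians lay between 5.25 and 5.42. Of 41345 probe sets, 23521 named 1 gene, 1814 several and 16010 none here. Symbols were updated through RefSeq, and the probe set with the highest mean was kept per gene.

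MG was compared with PBS by limma 3.58.1 in R 4.3.3 (lmFit, eBayes, no covariate, two-sided, Benjamini-Hochberg over 22180 genes, threshold 0.05); the fit was tested on simulated data. With 3 arrays a group, the number of arrays limits the precision (median standard error of the 31 genes 0.14). Values on all arrays were required for the 8 members with the smallest p and the 6 with the highest and lowest array 3 difference; in the other lists, genes at an unadjusted p under 0.05 and the 2 with the largest array 3 difference were named, as the Ink4 and Hmga2 axis genes all were. Hox and fate genes named beyond this were chosen after their values were seen. Alternatives were a filter on dim genes, other probe set rules, scalings, moderation, array weights, the replicate block, a proliferation covariate and arrays left out. Figures used matplotlib 3.10.9.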

Additional observations from a re-analysis of the deposited data

How the results depend on the processing

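In all 17 alternatives, including the replicate block, 0 genes passed the adjusted threshold and 0 of the 31 members had an unadjusted p under 0.05. With the replicate block 16 members had higher means after MG and the median log2 difference was 0.0018. These values equal those without the block by design, since each number holds 1 array of each group. Across alternatives 12 to 21 members had higher means, and the median ran from -0.04 to 0.04. Members lowest on both arrays numbered 3 came to 5 with quantile normalisation and with median centring. Of 527 member values under alternatives, 470 kept their sign and 57 turned it, none with a call. The 470 include values that were fixed in advance. The filter on dim genes, the moderation settings and the replicate block cannot change a member's difference. Neither can the other probe set rules for members with 1 probe set. The MG minus PBS difference turned its sign under some alternative in 21 of the 31. In the main fit the 95% confidence intervals of all 31 include 0, so the sign is settled for none. With median centring the difference was 0.033 (Cbx2), 0.015 (Hdac3), 0.022 (Phc2) and 0.027 (Phc3). Without both arrays numbered 3 the difference was 0.039 (Cbx2), 0.035 (Ezh2), -0.026 (Hdac1), 0.024 (Hdac3), -0.062 (Jarid2), -0.022 (Kdm6b), -0.023 (Rnf2) and -0.047 (Smarca4). With array weights the difference was 0.0039 (Ezh2), -0.060 (Hdac1), -0.0051 (Jarid2), 0.017 (Kdm6a), 0.033 (Phc3), -0.0025 (Rbbp7) and -0.047 (Rnf2). With quantile normalisation the difference was -0.0091 (Jarid2). With the proliferation covariate the difference was -0.012 (Rbbp7). With 1 array left out, the ranges that crossed 0 were -0.20 to 0.10 (Cbx2), -0.088 to 0.21 (Cbx8), -0.13 to 0.069 (Ezh2), -0.045 to 0.19 (Hdac1), -0.14 to 0.043 (Hdac3), -0.27 to 0.16 (Hmga2), -0.073 to 0.073 (Jarid2), -0.12 to 0.0070 (Kdm1a), -0.18 to 0.13 (Kdm6a), -0.011 to 0.28 (Kmt2a), -0.074 to 0.24 (Pcgf2), -0.043 to 0.30 (Phc1), -0.13 to 0.094 (Phc2), -0.11 to 0.13 (Phc3), -0.0064 to 0.086 (Rbbp4), -0.076 to 0.10 (Rbbp7), -0.080 to 0.060 (Rnf2), -0.0098 to 0.060 (Smarcc1) and -0.15 to 0.012 (Suz12). Correlations of the deviations of same-numbered arrays were 0.22, 0.04 and 0.45, and 2 of 6 arrays correlated best with their own number in the other group, so the numbers were not taken as pairs. The causes were not tested. For arrays, the number of samples limits these values.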
